A study of Mus musculus with 12 samples.

Results

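The cytochrome P450 families 1 to 3 are the P450 enzymes best known for oxidizing drugs, pollutants, steroids and fatty acids, and 61 genes of these families were found among the 21899 genes measured in mouse kidney. They were chosen by name, with earlier results of these data known. Each row whose Ensembl gene ID had a protein-coding symbol of Cyp1, Cyp2 or Cyp3 followed by a letter was taken, and pseudogenes were left out. Of the 61 members, 20 reached FPKM 0.3 in at least 3 libraries, the condition for entering the tests, against 12897 of all 21899 genes. FPKM scales fragments for gene length and for the fragments sequenced in a library, so it can be compared between genes of different length.

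P450 enzymes carry a heme group and take electrons from the reductase encoded by Por to put 1 oxygen atom into a substrate. Members of families 1 to 3 sit in the endoplasmic reticulum, most of them in hepatocytes, and the kidney expresses a smaller set, mainly in the proximal tubule. In mice several of them differ between the sexes and follow androgens or growth hormone.

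Kidney messenger RNA was sequenced in 4 groups of 3 libraries, all from the tissue as a whole. The libraries labelled db/db-GABP-KD came, by their labels, from db/db mice with knockdown of GABP, and the db/db-veh libraries from db/db mice given vehicle. The db/m-GABP-OE libraries came, again by their labels, from db/m mice overexpressing GABP, and the db/m-veh libraries from db/m mice given vehicle. In db/db mice a mutation impairs leptin receptor signalling, which makes them obese and diabetic, and db/m mice carry 1 mutant allele and stay lean. GABP is a transcription factor with a DNA-binding alpha subunit encoded by Gabpa. How GABP was raised or lowered, what the vehicle was, and the age, sex and strain background of the mice were not given in the sources used here. Kidneys of 6 mice a group were used, with 3 tissues mixed for an extraction. Since 3 separate pools would take 9 portions, libraries of a group may share animals, and p-values then measure only the spread between these libraries, which may be partly technical.

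The libraries held 6.78 to 9.70 M fragments, of which mitochondrially encoded genes took 48.0% to 75.5% in the libraries labelled db/db-GABP-KD, 75.1% to 86.0% in db/db-veh, 58.6% to 64.2% in db/m-GABP-OE and 67.9% to 77.8% in db/m-veh. All db/m-GABP-OE libraries thus lay below db/m-veh in this share (two-sided exact permutation p = 0.1, the smallest that 3 against 3 allows), and the libraries overlapped in the other 2 comparisons (exact permutation p = 0.3 each). The part of this share in the P450 values was not tested beyond the scaling below. FPKM divides by all fragments, mitochondrial ones included, and the median log2 fold change of all 12897 genes tested was 0.42 for the libraries labelled db/db-GABP-KD relative to db/db-veh, -0.24 for db/db-veh relative to db/m-veh and 0.38 for db/m-GABP-OE relative to db/m-veh. Values are therefore also given after scaling each library by the median of ratios, which brought these medians to 0.00, 0.01 and 0.04. Library 1 labelled db/db-GABP-KD stood apart, with the lowest mitochondrial share and a mean correlation of 0.873 with the other libraries of its group, and results that rest on it are given with and without it. Gabpa had 6.62, 2.66 and 3.40 FPKM in the libraries labelled db/db-GABP-KD, 2.20, 2.17 and 1.63 in db/db-veh, 3.45, 3.35 and 3.71 in db/m-GABP-OE, and 1.79, 2.32 and 2.54 in db/m-veh. The libraries labelled db/db-GABP-KD thus lay above db/db-veh in Gabpa (log2 fold change 0.84, limma adjusted p = 0.345), and after the median of ratios the libraries overlapped (0.31, limma adjusted p = 0.896). The db/m-GABP-OE libraries lay above db/m-veh as deposited (0.57, limma adjusted p = 0.435) and overlapped after the median of ratios (0.19, limma adjusted p = 0.999). As deposited, 17.3% of all genes had all libraries labelled db/db-GABP-KD above db/db-veh, and 30.4% had all db/m-GABP-OE libraries above db/m-veh. Gabpa was called in neither comparison. The proximal tubule was present in every library, with all 12 of its markers tested and Miox and Slc34a1 at means of 335 and 323 FPKM. The 12 hepatocyte markers summed to 3.17 to 35.4 FPKM in 11 of the libraries and to 143 FPKM in library 1 labelled db/db-GABP-KD. The Y-linked genes Ddx3y, Eif2s3y, Kdm5d and Uty were above 0 in all 12.

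Promoters are shown for 4 members whose levels the results turn on, and Cyp2d12 had no matched window to show. Cyp2a4 and Cyp2a5 are near copies on chromosome 7 whose ratio differed between groups. Cyp2j5 and Cyp2j13 belong to the Cyp2j cluster on chromosome 4, where Cyp2j5 had the highest mean and Cyp2j13 ranged from 0.364 to 12.3 FPKM. Each window holds 250 bases before and 50 after the transcription start, from RefSeq on GRCm38.p6, written 5′ to 3′ on the gene's strand, with TATAAA or its reverse complement TTTATA in capitals. The windows are chr7:26306942-26307241 on the plus strand for Cyp2a4, chr7:26835089-26835388 on the plus strand for Cyp2a5, chr4:96664070-96664369 on the minus strand for Cyp2j5 and chr4:96077491-96077790 on the minus strand for Cyp2j13.
Cyp2a4: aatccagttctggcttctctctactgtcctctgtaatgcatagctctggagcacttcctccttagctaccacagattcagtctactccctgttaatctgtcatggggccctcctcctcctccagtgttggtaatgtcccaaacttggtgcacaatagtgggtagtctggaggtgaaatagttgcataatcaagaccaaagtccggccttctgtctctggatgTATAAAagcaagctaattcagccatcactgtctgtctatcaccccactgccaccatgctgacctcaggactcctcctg
Cyp2a5: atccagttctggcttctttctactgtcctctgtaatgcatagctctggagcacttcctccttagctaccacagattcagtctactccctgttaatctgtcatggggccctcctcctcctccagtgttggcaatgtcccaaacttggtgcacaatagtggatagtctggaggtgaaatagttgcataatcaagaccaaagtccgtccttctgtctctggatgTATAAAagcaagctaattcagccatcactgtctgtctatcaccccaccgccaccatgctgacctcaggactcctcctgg
Cyp2j5: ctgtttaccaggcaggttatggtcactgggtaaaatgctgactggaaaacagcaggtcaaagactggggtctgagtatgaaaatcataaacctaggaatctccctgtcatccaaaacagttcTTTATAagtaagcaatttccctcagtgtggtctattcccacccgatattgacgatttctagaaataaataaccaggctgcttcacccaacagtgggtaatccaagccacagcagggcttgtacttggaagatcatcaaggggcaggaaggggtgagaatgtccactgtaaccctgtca
Cyp2j13: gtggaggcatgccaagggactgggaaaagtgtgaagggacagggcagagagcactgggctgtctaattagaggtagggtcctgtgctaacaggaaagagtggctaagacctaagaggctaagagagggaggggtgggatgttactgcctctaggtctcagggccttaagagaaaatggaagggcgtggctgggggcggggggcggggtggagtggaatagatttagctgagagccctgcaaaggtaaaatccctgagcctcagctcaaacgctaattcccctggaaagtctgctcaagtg

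The Cyp2a4 and Cyp2a5 windows were identical at 97.67% of 301 aligned columns and held the same TATAAA, at position -28 from the start in Cyp2a4 and -29 in Cyp2a5. They differed by 5 substitutions, C19T, T131C, G161A, G205T and T270C, where the first base is that of Cyp2a4, the last that of Cyp2a5, and positions count from 1 at the 5′ end of the Cyp2a4 window. The Cyp2j13 window shown held no TATAAA on either strand. RefSeq lists a further, nearby start for Cyp2j13, with the window chr4:96077498-96077797, which is not shown. The Cyp2j5 window was aligned with that further window only, and the 2 were identical at 49.23% of 323 aligned columns. RefSeq windows were matched for 53 members, 56 windows in all, since some genes have several starts. Cyp2c23, Cyp2d12, Cyp2d22, Cyp2j7 and Cyp2u1 reached FPKM 0.3 in 3 libraries but had no matched window. TATAAA occurred on either strand in 28 of these 56 windows, against 13.6% of the windows of all genes, and in 7 of the 16 windows of members that reached FPKM 0.3 in 3 libraries. CCGGAAG, the core of the site GABP is known to bind, was found on either strand in 1 of 56 member windows, that of Cyp2t4, and in 8.86% of all windows. The site of the clock-controlled factor DBP and its relatives, TTACGTAA, was found in 0 of the 56, against 0.119% of all windows. The full palindromes known as the androgen response element and the HNF1 site were found in 0 of the 56 as well, each against 0.00913% of all windows. None of these matches or misses is evidence about binding.

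The P450 genes detected in these kidneys were Cyp1b1 of family 1 and a limited set of family 2 genes, with Cyp1a1 just above the threshold. Family 1 had 2 of 3 members reaching the threshold, family 2 had 18 of 49, and family 3 had 0 of 9. The 9 Cyp3a genes, the main drug-oxidizing P450 genes of liver and intestine, gave 12 fragments in all 12 libraries together, and 6 of them were listed at 0 throughout. Among the family 2 clusters, 7 of 8 Cyp2j, 4 of 8 Cyp2d and 2 of 4 Cyp2a genes reached the threshold. By contrast, 1 of 15 Cyp2c genes (Cyp2c23) and 0 of 5 Cyp2b genes did.

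In total 22 members were listed at 0 in all 12 libraries, among them the liver genes Cyp1a2, Cyp2c29, Cyp2c50, Cyp3a25 and Cyp3a41a. The others were Cyp2a12, Cyp2a22, Cyp2b13, Cyp2c37, Cyp2c39, Cyp2c54, Cyp2c66, Cyp2c67, Cyp2d11, Cyp2d40, Cyp2g1, Cyp2j12, Cyp2w1, Cyp3a16, Cyp3a41b, Cyp3a44 and Cyp3a59. A count of 0 over all libraries allows a mean of at most 0.00878 to 0.02002 FPKM for these genes. This bound takes 3 fragments over the 12 libraries and covers counting error only. It also assumes that fragments matching several genes were counted, which was not given in the sources used here. For near-identical copies such as Cyp3a41a and Cyp3a41b it is therefore no evidence of absence. A further 19 members were above 0 but under the threshold, with 1 to 26 fragments each and no value above 0.718 FPKM. They include Cyp2r1, the vitamin D hydroxylase of liver, with 7 fragments, and Cyp2b10, the classic target of the receptor CAR, with 1. Cyp2b9, Cyp2b19, Cyp2b23, Cyp2c55, Cyp2d10, Cyp3a11 and Cyp3a13 had 20, 14, 11, 9, 5, 2 and 7 fragments, and Cyp2ab1, Cyp2c38, Cyp2c40, Cyp2c65, Cyp2c68, Cyp2c70, Cyp2d34 and Cyp3a57 had 1 to 3 each. Closest under the threshold were Cyp2t4 and Cyp2c69, each at or above FPKM 0.3 in 2 libraries and with means of 0.152 and 0.150 FPKM. Closest above it was Cyp1a1, in 6 libraries, with a mean of 0.291 FPKM and a range of 0 to 0.585. Cyp2f2, known from the club cells of the lung airway, followed with a mean of 0.355 FPKM and a range of 0 to 1.11.

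Of the members, 13 had at least 1 FPKM in all 12 libraries and 6 averaged at least 10 FPKM. Cyp2e1 averaged 62.9 FPKM and Cyp2a4 59.4, followed by Cyp2j5 at 38.5, Cyp2a5 at 26.3, Cyp2d9 at 24.99 and Cyp2d26 at 22.6. The spread between libraries of a group was often wider than the step between neighbours in this order, so no rank within it is firm. Near-identical copies are less certain. Cyp2a4 and Cyp2a5 have coding sequences identical at 98.45% of 1485 columns. They share 11.2% and 14.4% of the 100-base windows of their transcripts with another gene, and Cyp2d9 shares 9.86%. Among the members without any fragment, Cyp3a41a and Cyp3a41b share 90.8% and 88.2% of such windows, and Cyp2c67 shares 23.7%. The Cyp2j members, Cyp1b1 and Cyp2c23 share no such window, and how fragments matching several genes were counted was not given in the sources used here.

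**Figure D1:**
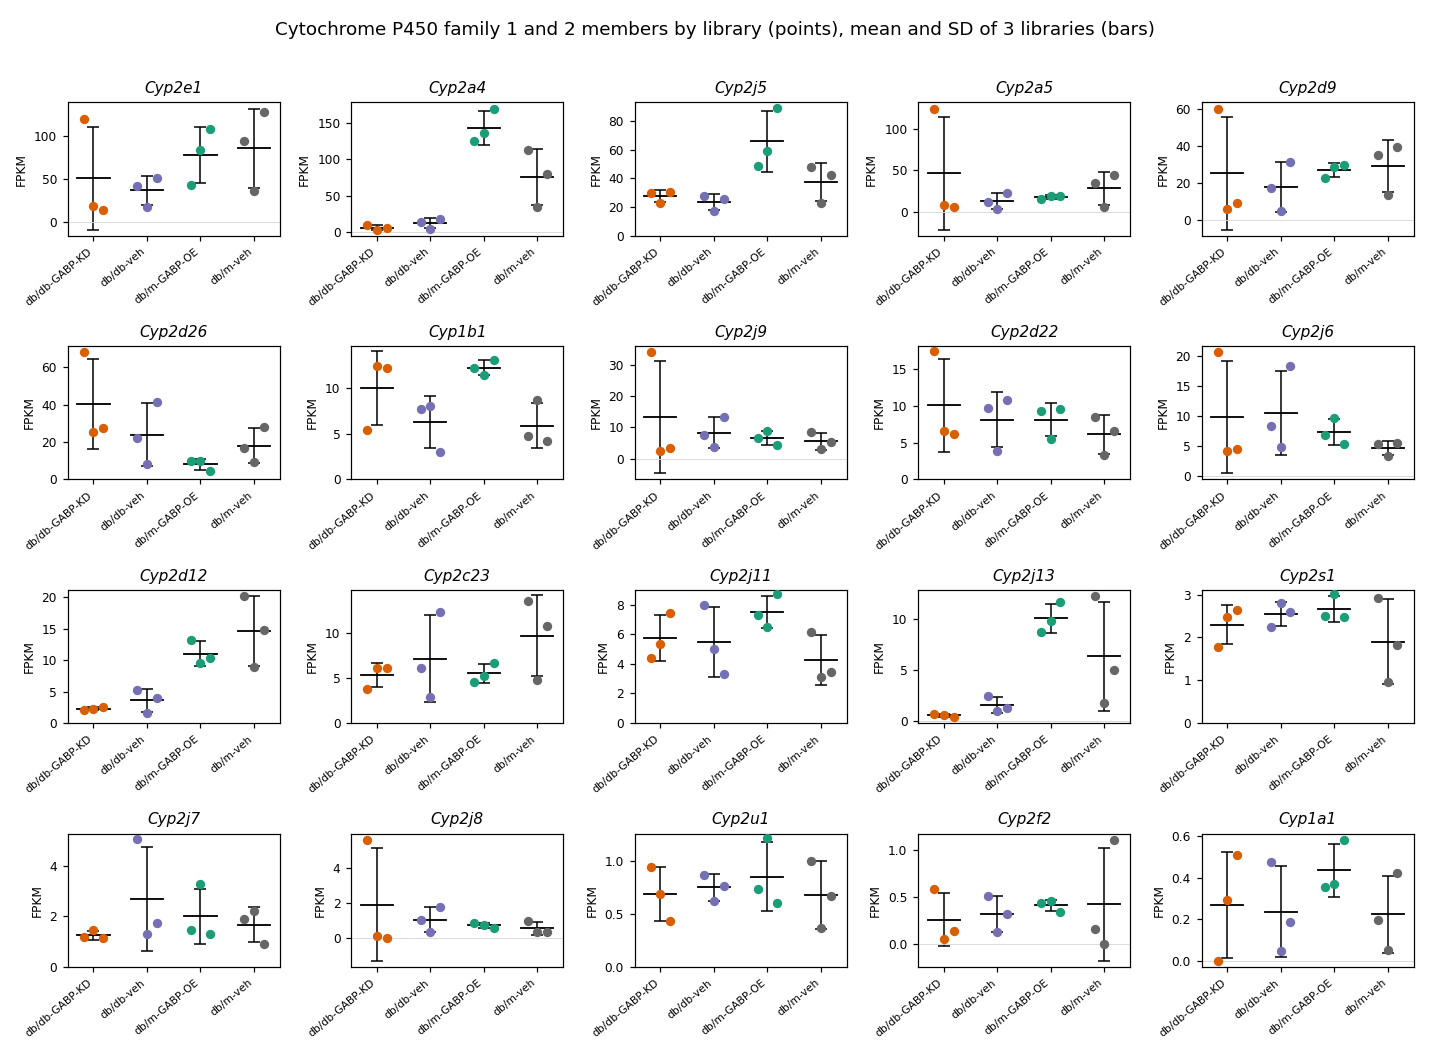
FPKM of the 20 members that reached the threshold, 1 panel per gene ordered by mean level. Points are the 3 libraries of each group, the horizontal bar is their mean and the error bar is 1 SD. Cyp2a4, Cyp2d12 and Cyp2j13 have their lowest group means in the libraries labelled db/db-GABP-KD and the next in db/db-veh, and library 1 labelled db/db-GABP-KD is the highest point for Cyp2a5 (124 FPKM), Cyp2d9, Cyp2d26 and Cyp2j9.

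Among the steroid hydroxylases, Cyp2a4, which hydroxylates testosterone, lies on GRCm38 chromosome 7, 26307169 to 26315088, plus strand (ENSMUSG00000074254), and values here cover the exons of a gene as a whole. Cyp2a4 had 8.99, 3.22 and 5.89 FPKM in the libraries labelled db/db-GABP-KD, 14.0, 4.63 and 17.3 in db/db-veh, 125, 136 and 170.2 in db/m-GABP-OE, and 113, 34.9 and 79.5 in db/m-veh. The 6 db/db libraries all lay below the 6 db/m libraries, and the db/m-GABP-OE libraries all lay above the db/m-veh libraries. The share of all genes with all 6 db/db libraries below all 6 db/m libraries was not computed. For db/db-veh below db/m-veh alone it was 14.4% as deposited. Its near copy Cyp2a5, the coumarin hydroxylase (chromosome 7, 26835305 to 26843548, plus strand), had 124, 8.49 and 5.83 FPKM in the libraries labelled db/db-GABP-KD, 11.9, 3.88 and 23.0 in db/db-veh, 15.3, 19.5 and 18.5 in db/m-GABP-OE, and 34.6, 6.09 and 43.9 in db/m-veh. Library 1 labelled db/db-GABP-KD was the highest of all 12 for Cyp2a5, and the libraries overlapped in all 3 comparisons. In mouse liver both genes are known to follow the clock-controlled factor DBP.

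Cyp2d9, which hydroxylates testosterone and is male-predominant in mouse liver, and 3 further Cyp2d genes lie on chromosome 15. Cyp2d9 had 60.1, 6.40 and 9.31 FPKM in the libraries labelled db/db-GABP-KD, 17.4, 5.08 and 31.6 in db/db-veh, 22.9, 28.9 and 29.7 in db/m-GABP-OE, and 35.3, 13.5 and 39.6 in db/m-veh. Apart from library 1 labelled db/db-GABP-KD, its highest values were in the db/m groups and in db/db-veh 3. Cyp2d12 (82555072 to 82560403, plus strand) had 2.11, 2.31 and 2.53 FPKM in the libraries labelled db/db-GABP-KD, 5.24, 1.67 and 4.03 in db/db-veh, 13.2, 9.48 and 10.3 in db/m-GABP-OE, and 20.1, 8.96 and 14.7 in db/m-veh. The 6 db/db libraries all lay below the 6 db/m libraries for Cyp2d12 as well, again with no share of all genes computed. Cyp2d26 had 68.1, 25.6 and 27.3 FPKM in the libraries labelled db/db-GABP-KD, 22.0, 8.26 and 41.6 in db/db-veh, 9.76, 10.01 and 4.61 in db/m-GABP-OE, and 17.0, 9.17 and 27.9 in db/m-veh. Its libraries overlapped in all 3 comparisons as deposited. Those labelled db/db-GABP-KD lay above all 3 db/m-GABP-OE libraries, which is not among these comparisons, and no share of all genes was computed for it. Cyp2d22 had 17.4, 6.59 and 6.22 FPKM in the libraries labelled db/db-GABP-KD, 9.69, 3.85 and 10.8 in db/db-veh, 9.23, 5.54 and 9.53 in db/m-GABP-OE, and 8.48, 3.30 and 6.52 in db/m-veh, and its libraries overlapped in all 3 comparisons.

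Cyp1b1, a hydroxylase of estradiol and a target of the aryl hydrocarbon receptor (chromosome 17, 79701537 to 79715061, minus strand), had 5.39, 12.5 and 12.2 FPKM in the libraries labelled db/db-GABP-KD, 7.75, 8.07 and 2.99 in db/db-veh, 12.2, 11.4 and 13.1 in db/m-GABP-OE, and 4.74, 8.69 and 4.16 in db/m-veh. The db/m-GABP-OE libraries and 2 of those labelled db/db-GABP-KD were the highest. Cyp2e1, which oxidizes ethanol, acetone and small solvents (chromosome 7, 140763739 to 140774987, plus strand), had 119.9, 18.6 and 14.8 FPKM in the libraries labelled db/db-GABP-KD, 41.8, 17.9 and 50.7 in db/db-veh, 43.6, 83.5 and 108 in db/m-GABP-OE, and 93.6, 36.1 and 127 in db/m-veh. Its lowest values were in libraries 2 and 3 labelled db/db-GABP-KD and in db/db-veh 2, and the libraries overlapped in all 3 comparisons.

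Several Cyp2j genes and Cyp2c23 encode enzymes that turn arachidonic acid into epoxides, which act on vessels and on tubular sodium transport. Cyp2j5, the main Cyp2j enzyme of mouse kidney (chromosome 4, 96628773 to 96664154, minus strand), had 29.6, 22.6 and 30.2 FPKM in the libraries labelled db/db-GABP-KD, 27.9, 17.3 and 25.3 in db/db-veh, 48.5, 59.2 and 89.2 in db/m-GABP-OE, and 47.6, 22.7 and 42.0 in db/m-veh. The db/m-GABP-OE libraries were all above those of the other 3 groups, and no share of all genes was computed for this. Cyp2j13 (chromosome 4, 96027534 to 96077546, minus strand) had 0.631, 0.596 and 0.364 FPKM in the libraries labelled db/db-GABP-KD, 2.42, 0.913 and 1.25 in db/db-veh, 8.78, 9.87 and 11.7 in db/m-GABP-OE, and 12.3, 1.75 and 4.98 in db/m-veh. It was below 1 FPKM in all 3 libraries labelled db/db-GABP-KD and above 8 FPKM in all 3 db/m-GABP-OE libraries, and db/m-veh spread from 1.75 to 12.3 FPKM. Cyp2c23, known as the epoxygenase of rat kidney (chromosome 19, 44005022 to 44029208, minus strand), had 3.84, 6.16 and 6.13 FPKM in the libraries labelled db/db-GABP-KD, 6.15, 2.89 and 12.4 in db/db-veh, 4.62, 5.30 and 6.74 in db/m-GABP-OE, and 13.6, 4.76 and 10.8 in db/m-veh, and its libraries overlapped in all 3 comparisons.

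Cyp2j6 had 20.6, 4.27 and 4.58 FPKM in the libraries labelled db/db-GABP-KD, 8.30, 4.86 and 18.2 in db/db-veh, 6.88, 9.66 and 5.39 in db/m-GABP-OE, and 5.34, 3.42 and 5.52 in db/m-veh. Cyp2j9 had 34.0, 2.48 and 3.37 FPKM in the libraries labelled db/db-GABP-KD, 7.56, 3.77 and 13.5 in db/db-veh, 6.47, 8.86 and 4.40 in db/m-GABP-OE, and 8.49, 2.99 and 5.26 in db/m-veh. For both genes library 1 labelled db/db-GABP-KD was the highest and db/db-veh 3 the next, while the other 2 libraries labelled db/db-GABP-KD were among the low ones. Cyp2j11 had 4.38, 5.35 and 7.42 FPKM in the libraries labelled db/db-GABP-KD, 7.999, 5.01 and 3.33 in db/db-veh, 7.28, 6.50 and 8.68 in db/m-GABP-OE, and 6.16, 3.14 and 3.46 in db/m-veh. The db/m-GABP-OE libraries lay above db/m-veh for Cyp2j11 and overlapped the db/db groups. Of the remaining Cyp2j members, Cyp2j7 ranged from 0.919 to 5.06 FPKM and Cyp2j8 from 0 to 5.64 FPKM. Cyp2s1 ranged from 0.951 to 3.01 FPKM and Cyp2u1, a hydroxylase of long-chain fatty acids, from 0.364 to 1.22 FPKM.

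Kidney of db/db mice was compared with that of db/m mice, both given vehicle. Cyp2a4 averaged 11.98 ± 6.57 FPKM in db/db-veh and 75.7 ± 39.1 FPKM in db/m-veh (SD, n = 3 each), a ratio of means of 0.158. Cyp2d12 averaged 3.65 ± 1.82 FPKM in db/db-veh and 14.6 ± 5.59 FPKM in db/m-veh, a ratio of 0.25. All 3 db/db-veh libraries lay below all 3 db/m-veh libraries for both genes, as deposited and after the median of ratios. Cyp2j13 averaged 1.53 ± 0.791 FPKM in db/db-veh and 6.35 ± 5.41 FPKM in db/m-veh, and its libraries overlapped. Because whole tissue was sequenced, fewer cells of a type and less RNA per cell cannot be told apart.

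No member passed the threshold of an adjusted p under 0.05 in this comparison (limma, 0 of 20, against 0.093% of all genes, 12 of 12897). At an unadjusted p under 0.05 there were 3 of 20 members, against 11.5% of all genes. The log2 fold change was -2.64 for Cyp2a4 (SE 0.54, 95% interval -3.78 to -1.51, limma adjusted p = 0.0908) and -1.91 for Cyp2d12 (SE 0.40, interval -2.76 to -1.05, limma adjusted p = 0.101). Relative to the median of all genes these were -2.40 and -1.67. With libraries scaled by the median of ratios Cyp2a4 was past the threshold (log2 fold change -2.28, limma adjusted p = 0.035; 1 of 20 members, against 0.171% of all genes) and Cyp2d12 was not (-1.59, limma adjusted p = 0.0892). Over 22 alternative settings Cyp2a4 kept its sign in 22 and passed in 7, with limma adjusted p between 0.0214 and 0.423. Cyp2d12 kept its sign in 22 and passed in 2, with limma adjusted p between 0.0307 and 0.484. Without library 1 labelled db/db-GABP-KD, which enters the shared estimate of spread, the limma adjusted p was 0.0324 for Cyp2a4 and 0.0417 for Cyp2d12, and without db/m-veh 2 it was 0.036 for Cyp2a4.

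The other members lay between -1.48 and 0.89. Cyp2j13 had a log2 fold change of -1.48 (SE 0.48, limma adjusted p = 0.257), Cyp2e1 -1.16 (SE 0.70, limma adjusted p = 0.555) and Cyp2a5 -1.002 (SE 0.92, limma adjusted p = 0.73). In the other direction Cyp2j6 had 0.89 (SE 0.55, limma adjusted p = 0.56), and after the median of ratios its db/db-veh libraries all lay above db/m-veh (1.26, limma adjusted p = 0.234). Over the 20 members the median log2 fold change was 0.03, against -0.24 for all genes, and 12 of 20 lay above the all-gene median. After the median of ratios the members' median was 0.27, against 0.01. Non-overlapping libraries were found for 2 of 20 members on the lower side and 0 on the higher, against 14.4% and 1.46% of all genes. The same counts after the median of ratios were 2 and 1 of 20, against 8.94% and 8.39%.

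GABP overexpression was compared with vehicle in lean kidney. As deposited, 4 members had all 3 db/m-GABP-OE libraries above all 3 db/m-veh libraries, namely Cyp1b1, Cyp2a4, Cyp2j5 and Cyp2j11, against 30.4% of all genes, and 0 had them all below, against 0.923%. Cyp2a4 averaged 144 ± 23.6 FPKM in db/m-GABP-OE and 75.7 ± 39.1 FPKM in db/m-veh, and Cyp2j5 averaged 65.6 ± 21.1 FPKM in db/m-GABP-OE and 37.4 ± 13.1 FPKM in db/m-veh (SD, n = 3 each). Cyp1b1 averaged 12.2 ± 0.812 FPKM in db/m-GABP-OE and 5.86 ± 2.47 FPKM in db/m-veh. Scaling by the median of ratios made the libraries of all 4 overlap (0 of 20 above, against 9.55% of all genes), and Cyp2c23, Cyp2d12 and Cyp2d26 had all db/m-GABP-OE libraries below db/m-veh, 3 of 20 against 4.73% of all genes.

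No member was called (limma, 0 of 20, against 1.9% of all genes, 245 of 12897, and 0.21% after the median of ratios), nor under any of the 22 alternatives. At an unadjusted p under 0.05 there was 1 member of 20, Cyp1b1, against 15.1% of all genes. Its log2 fold change was 1.07 (SE 0.44, 95% interval 0.14 to 2.00, limma adjusted p = 0.259), or 0.64 after the median of ratios (interval -0.53 to 1.81, limma adjusted p = 0.999). Cyp2a4 had 1.06 (SE 0.54, limma adjusted p = 0.366), Cyp2j13 0.96 (SE 0.48, limma adjusted p = 0.357), Cyp2j5 0.82 (SE 0.41, limma adjusted p = 0.361) and Cyp2j11 0.79 (SE 0.38, limma adjusted p = 0.338). Cyp2d26 averaged 8.13 ± 3.05 FPKM in db/m-GABP-OE and 18.0 ± 9.41 FPKM in db/m-veh, a log2 fold change of -1.04 (SE 0.58, limma adjusted p = 0.415). On the scaled values it stood at -1.45 with an interval of -2.38 to -0.51 (limma adjusted p = 0.277). The members' median log2 fold change was 0.26, against 0.38 for all genes, and 0.02 against 0.04 after the median of ratios. Beside Cyp1b1, which is known from stromal cells, the 6 stromal markers summed to 153 to 188 FPKM in db/m-GABP-OE and 35.1 to 83.1 FPKM in db/m-veh, with 1 of 6 called (Col3a1 higher) and none at 0. On the scaled values the sums were 121 to 141 in db/m-GABP-OE and 32.3 to 100.7 in db/m-veh, and 0 of 6 were called (smallest limma adjusted p = 0.496). Their part in the Cyp1b1 values was not tested.

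Knockdown of GABP as labelled was compared with vehicle in db/db kidney, the direction drawn from the labels, although Gabpa was not lower there. As deposited Cyp2j13 was the 1 member of 20 with all 3 libraries labelled db/db-GABP-KD below all 3 db/db-veh libraries, against 0.822% of all genes, and 0 members had them all above, against 17.3%. Cyp2j13 averaged 0.530 ± 0.145 FPKM there and 1.53 ± 0.791 FPKM in db/db-veh (SD, n = 3 each), with a log2 fold change of -0.92 (SE 0.48, 95% interval -1.93 to 0.10, limma adjusted p = 0.352). After the median of ratios 5 of 20 members lay below db/db-veh in all libraries, Cyp2a4, Cyp2d12, Cyp2j7, Cyp2j13 and Cyp2u1, against 5.73% of all genes, and 0 above, against 4.62%.

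No member was called (limma, 0 of 20, against 0% of all genes, 0 of 12897, and 0.0389% after the median of ratios), nor under any of the 22 alternatives, and at an unadjusted p under 0.05 there were 0 members and 14.3% of all genes. The members' median log2 fold change was -0.09, against 0.42 for all genes, and 3 of 20 lay above the all-gene median. On the scaled values these were -0.55 and 0.00, again with 3 of 20 above. Without library 1 labelled db/db-GABP-KD the members' median was -0.41, against 0.22 for all genes, and after the median of ratios -0.59, against 0.02. In that smaller comparison 4 members lay below in all libraries as deposited, Cyp2j6, Cyp2j8, Cyp2j9 and Cyp2j13, against 2.27% of all genes, and 10 of 20 after the median of ratios, against 10.99%. Cyp1b1 lay above in all libraries as deposited, against 23.9% of all genes. The log2 fold change of Cyp2j9 was -0.09 with library 1 and -1.21 without it (limma adjusted p = 0.943 and 0.418). That of Cyp2j8 was -0.20 with library 1 and -1.34 without it (limma adjusted p = 0.857 and 0.22), and 0 members were called without it. The sign of Cyp2a5 rested on that library, with 0.82 (SE 0.92) with it and -0.52 (SE 0.70) without it. Cyp2a4 had -0.85 (SE 0.54, limma adjusted p = 0.399) with it and -1.17 (SE 0.55, limma adjusted p = 0.506) without it.

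**Figure D2:**
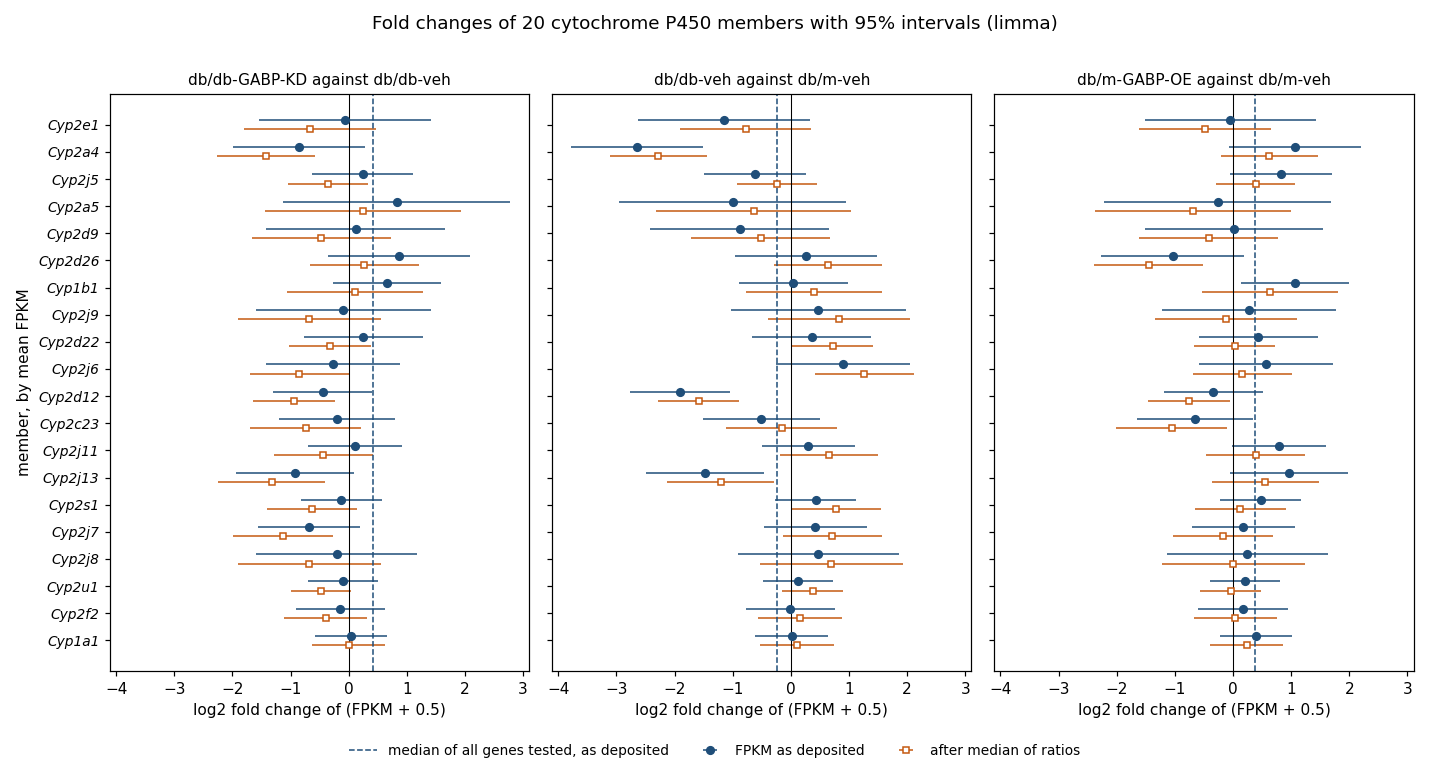
Log2 fold change of log2(FPKM + 0.5) for the 20 members in the 3 comparisons, with 95% intervals from limma. Filled points are values as deposited, open points values after the median of ratios, and the dashed line is the median of all genes as deposited. Cyp2a4 and Cyp2d12 lie farthest below 0 for db/db-veh relative to db/m-veh (-2.64 and -1.91), and in the left panel 3 of the 20 filled points lie above the dashed line.

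The make-up of the P450 transcripts also differed between libraries. The 61 members summed to 510.8, 130.4 and 141.4 FPKM in the libraries labelled db/db-GABP-KD, 200.9, 93.4 and 263.9 FPKM in db/db-veh, 341.3, 414.0 and 496.1 FPKM in db/m-GABP-OE, and 428.1, 163.7 and 421.5 FPKM in db/m-veh. The sum was lowest in db/db-veh 2 and in libraries 2 and 3 labelled db/db-GABP-KD, and the libraries overlapped in all 3 comparisons. Cyp2a4 made up 1.76% to 4.17% of the sum in the libraries labelled db/db-GABP-KD, 4.96% to 6.97% in db/db-veh, 32.9% to 36.5% in db/m-GABP-OE and 18.9% to 26.4% in db/m-veh. These 4 ranges did not overlap, and they do not depend on how a library is scaled. The shares were formed after the values were seen, so they are given with no test. How often shares of other genes separate the groups was not computed. Cyp2a4 was the leading member in all 3 db/m-GABP-OE libraries and in db/m-veh 1, while Cyp2e1 led in the other 2 db/m-veh libraries and in all 3 db/db-veh libraries. In the libraries labelled db/db-GABP-KD the leading members were Cyp2a5, Cyp2d26 and Cyp2j5 in libraries 1, 2 and 3.

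**Figure D3:**
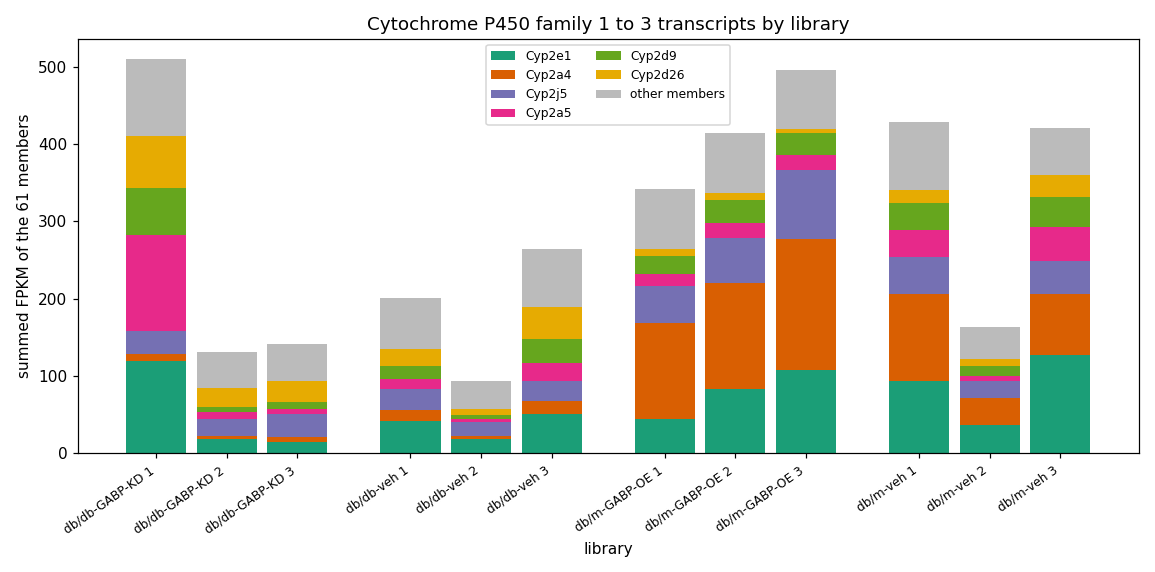
Summed FPKM of the 61 members in each library, stacked by the 6 members with the highest mean and all others in grey. Cyp2a4 takes 32.9% to 36.5% of the bar in db/m-GABP-OE and 18.9% to 26.4% in db/m-veh, and under 7% in all 6 db/db libraries.

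A ratio of 2 genes within a library is likewise free of scaling. In all, 6 such ratios between members of a cluster were formed after the values were seen, so they are given with no test. Cyp2a4 over Cyp2a5 was 0.0724, 0.379 and 1.01 in the libraries labelled db/db-GABP-KD, 1.18, 1.19 and 0.751 in db/db-veh, 8.17, 6.99 and 9.21 in db/m-GABP-OE, and 3.26, 5.73 and 1.81 in db/m-veh. All 6 db/m libraries lay above all 6 db/db libraries, and db/m-GABP-OE above db/m-veh. Cyp2d12 over Cyp2d22 was 0.121, 0.351 and 0.407 in the libraries labelled db/db-GABP-KD, 0.541, 0.434 and 0.372 in db/db-veh, 1.43, 1.71 and 1.08 in db/m-GABP-OE, and 2.38, 2.71 and 2.26 in db/m-veh. Again the db/m libraries lay above the db/db libraries, and here db/m-GABP-OE lay below db/m-veh.

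The order within the db/m libraries depended on the partner gene. Cyp2d12 over Cyp2d26 was 0.0309 to 0.0926 in the libraries labelled db/db-GABP-KD, 0.0967 to 0.239 in db/db-veh, 0.948 to 2.22 in db/m-GABP-OE and 0.527 to 1.19 in db/m-veh, so that db/m-GABP-OE was not below db/m-veh. Over its closest copy Cyp2d9, Cyp2d12 stood at 0.0350 to 0.361 in the libraries labelled db/db-GABP-KD, 0.127 to 0.329 in db/db-veh, 0.328 to 0.579 in db/m-GABP-OE and 0.371 to 0.665 in db/m-veh. With this partner the db/db and db/m libraries overlapped. Cyp2j13 over Cyp2j9 was 0.0186 to 0.241 in the libraries labelled db/db-GABP-KD, 0.0928 to 0.320 in db/db-veh, 1.11 to 2.65 in db/m-GABP-OE and 0.586 to 1.45 in db/m-veh. Cyp2j13 over Cyp2j5 was 0.0120 to 0.0264 in the libraries labelled db/db-GABP-KD, 0.0495 to 0.0869 in db/db-veh, 0.131 to 0.181 in db/m-GABP-OE and 0.0773 to 0.259 in db/m-veh. The 6 db/m libraries thus lay above the 6 db/db libraries in 4 of the 6 ratios and overlapped them in Cyp2d12 over Cyp2d9 and Cyp2j13 over Cyp2j5. The numerators Cyp2a4, Cyp2d12 and Cyp2j13 have their lowest group means in the db/db groups, and the ratios share members. Part of this separation was therefore built in, and how often other gene pairs separate these libraries was not computed. The db/db-veh and db/m-GABP-OE comparisons share the db/m-veh libraries, and the libraries labelled db/db-GABP-KD were set against the same db/db-veh libraries.

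**Figure D4:**
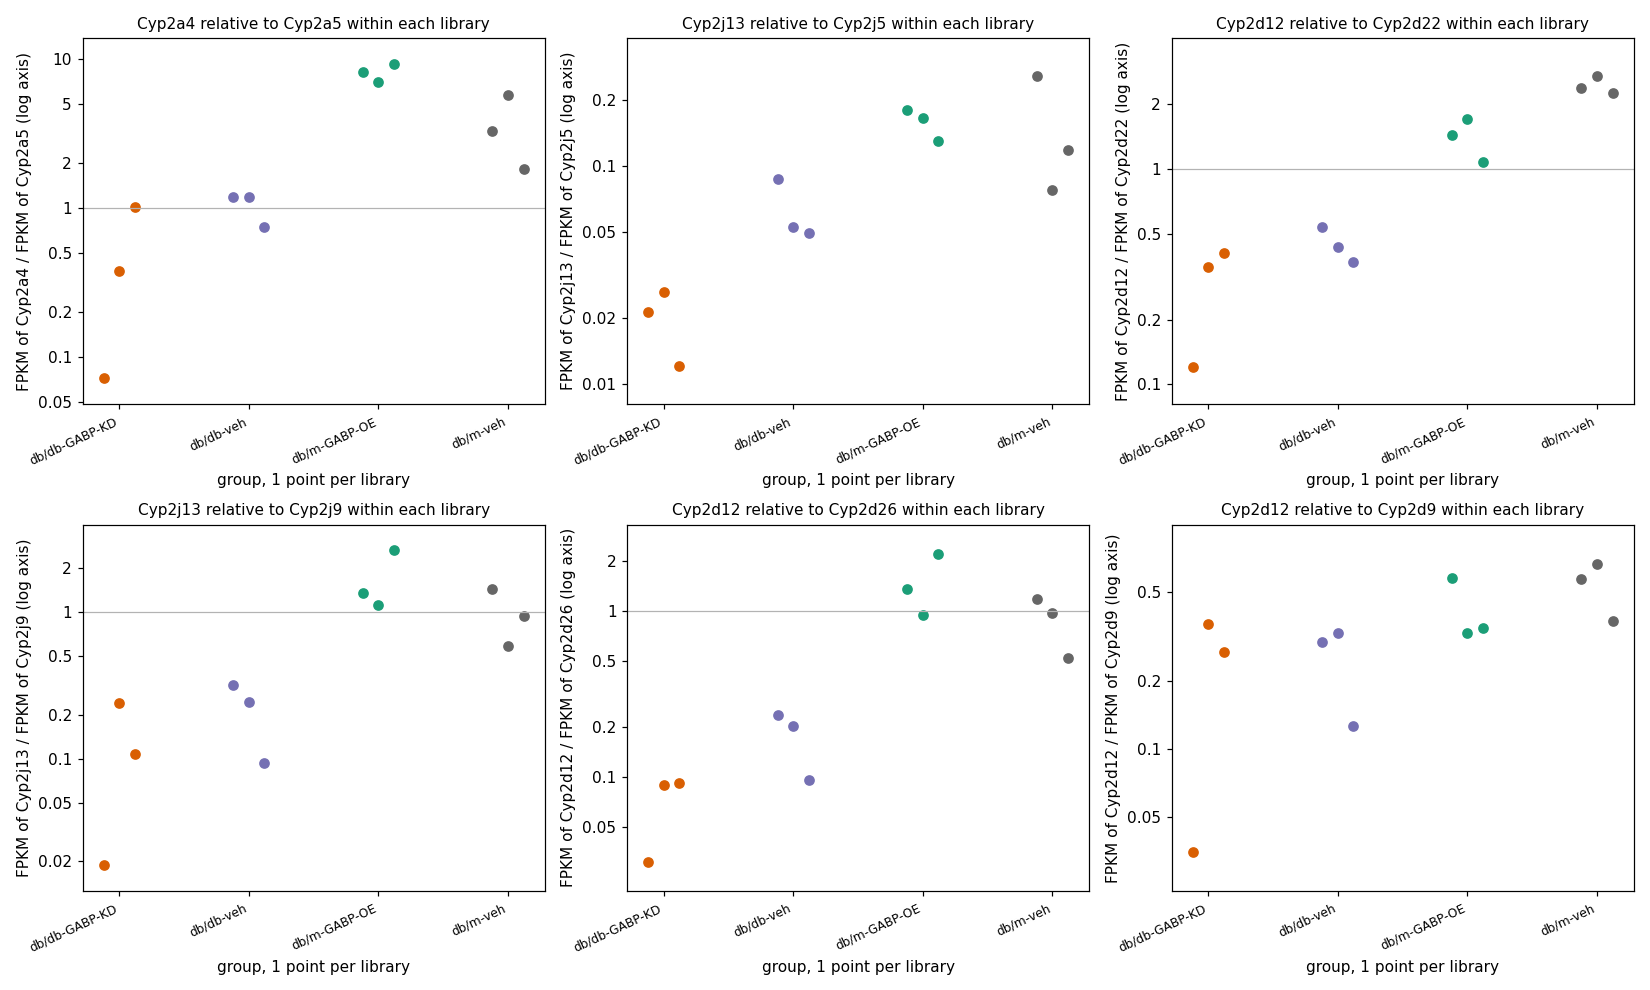
FPKM of 1 member over that of another of its cluster in each library, for all 6 ratios formed, on log axes, 1 point per library. The ratios were formed after the values were seen and share members. The db/m libraries lie above the db/db libraries in 4 panels and overlap them for Cyp2d12 over Cyp2d9 (0.328 in db/m-GABP-OE, 0.361 in a library labelled db/db-GABP-KD) and Cyp2j13 over Cyp2j5 (0.0869 in db/db-veh, 0.0773 in db/m-veh).

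Genes that work with the P450 enzymes were looked at by list. Median log2 fold changes of a list are given for the libraries labelled db/db-GABP-KD, for db/db-veh and for db/m-GABP-OE, in that order, where all genes had 0.42, -0.24 and 0.38 as deposited and 0.00, 0.01 and 0.04 after the median of ratios. Of 12 genes for electron supply and heme synthesis, 0 were called in each of the 3 comparisons. Their medians were 0.33, -0.51 and 0.23 as deposited and -0.19, -0.16 and -0.20 on the scaled values, so that the sign turned in 2 of the 3. Por, the reductase that feeds all of these enzymes, had 42.0, 15.8 and 17.7 FPKM in the libraries labelled db/db-GABP-KD, 15.8, 8.23 and 27.2 in db/db-veh, 18.3, 24.8 and 41.7 in db/m-GABP-OE, and 29.0, 11.8 and 19.0 in db/m-veh, and its libraries overlapped in all 3 comparisons. Cyb5a, the cytochrome b5 that supplies a further electron to some P450 enzymes, had 57.6, 20.8 and 26.2 FPKM in the libraries labelled db/db-GABP-KD, 30.9, 17.4 and 44.1 in db/db-veh, 85.4, 113 and 121 in db/m-GABP-OE, and 88.6, 55.3 and 71.9 in db/m-veh. Its db/db-veh libraries lay below db/m-veh, as in 14.4% of all genes, with a log2 fold change of -1.28 (SE 0.46, limma adjusted p = 0.297).

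Of 15 P450 regulators 13 were tested and 0 were called, with medians of 0.11, 0.06 and 0.16 as deposited and -0.21, 0.44 and -0.17 on the scaled values. The receptors Nr1h4 and Hnf4a had the highest means, 33.0 FPKM each. Dbp had 6.05, 2.41 and 2.19 FPKM in the libraries labelled db/db-GABP-KD, 10.2, 4.08 and 3.70 in db/db-veh, 2.92, 14.2 and 9.14 in db/m-GABP-OE, and 2.37, 2.06 and 1.002 in db/m-veh. Its db/db-veh libraries all lay above db/m-veh, as in 1.46% of all genes, with a log2 fold change of 1.41 (SE 0.53, limma adjusted p = 0.317). Its db/m-GABP-OE libraries also lay above db/m-veh, as in 30.4% of all genes (1.82, SE 0.53, limma adjusted p = 0.0918). After the median of ratios its db/m-GABP-OE libraries overlapped db/m-veh. The Dbp transcript oscillates over the day, and the hour of sampling was not given in the sources used here. What part Dbp had in the Cyp2a4 values was not tested. Of 4 epoxide hydrolases, which break down P450 epoxides, 3 were tested and 0 were called, with medians of 0.02, -0.21 and 0.61 as deposited and -0.40, -0.13 and 0.17 on the scaled values. Ephx2 and Ephx1 averaged 37.0 and 15.5 FPKM.

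Among other P450 genes, 13 of 20 family 4 genes were tested and 0 were called, with medians of 0.53, -0.27 and 0.21 as deposited and -0.00183, -0.14 and -0.12 on the scaled values. Cyp4a10 and Cyp4b1, known for hydroxylating fatty acids, had the highest means of that family, 77.1 and 70.1 FPKM. Of 19 P450 genes outside families 1 to 4, 10 were tested and Cyp7b1, the oxysterol and steroid hydroxylase, was called in 2 comparisons. The medians of these 10 were 0.31, 0.30 and 0.29 as deposited and -0.011, 0.54 and -0.027 on the scaled values. Cyp7b1 had 1.15, 0.753 and 0.328 FPKM in the libraries labelled db/db-GABP-KD, 0.953, 0.1797 and 0.361 in db/db-veh, 17.6, 20.3 and 50.4 in db/m-GABP-OE, and 9.04, 5.28 and 5.09 in db/m-veh. It fell in db/db-veh relative to db/m-veh (log2 fold change -2.83, limma adjusted p = 0.0119) and rose in db/m-GABP-OE relative to db/m-veh (1.99, limma adjusted p = 0.0266, or 0.154 after the median of ratios).

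Cyp7b1 belongs to a list of 8 genes that androgens are known to raise in mouse kidney, all of which were tested. Their median log2 fold change was -0.03 for the libraries labelled db/db-GABP-KD, -2.18 for db/db-veh and 1.51 for db/m-GABP-OE, and on the scaled values -0.38, -2.06 and 1.07. Kap, the kidney androgen-regulated protein, fell in db/db-veh, to 850.5, 348.2 and 836.4 FPKM, against 14988, 2774 and 6747 FPKM in db/m-veh (log2 fold change -3.38, limma adjusted p = 0.0237). Kap stood at 350.1, 118 and 194 FPKM in the libraries labelled db/db-GABP-KD and at 14741, 30365 and 22350 FPKM in db/m-GABP-OE. Besides Kap and Cyp7b1, called lower in db/db-veh, Acsm3 and Cyp7b1 were called higher in db/m-GABP-OE, and neither of the last was called there after the median of ratios. Kap and Cyp7b1 were low in the same db/db groups as Cyp2a4 and Cyp2d12, and their part in the P450 values was not tested. The list was chosen with earlier results of these samples known, so its direction is no independent evidence.

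Markers of cell types were summed beside these results. The 12 proximal tubule markers summed to 788 to 965 FPKM in the libraries labelled db/db-GABP-KD, 469 to 1205 FPKM in db/db-veh, 1403 to 1778 FPKM in db/m-GABP-OE and 579.9 to 2515 FPKM in db/m-veh, with 0 called. Their medians were 0.30, -0.38 and 0.31 as deposited and -0.27, 0.0038 and -0.10 on the scaled values, so that the sign turned in all 3. Of 12 hepatocyte markers 7 were tested and 0 were called, with medians of 0.34, 0.21 and 0.25 as deposited and -0.015, 0.35 and -0.091 on the scaled values. They summed to 7.78 to 143 FPKM in the libraries labelled db/db-GABP-KD, 3.17 to 35.4 FPKM in db/db-veh, 7.86 to 9.80 FPKM in db/m-GABP-OE and 6.48 to 16.3 FPKM in db/m-veh. In library 1 labelled db/db-GABP-KD, where Cyp2a5, Cyp2d9 and Cyp2j9 were high, the fibrinogen genes Fgg and Fga had 101 and 33.3 FPKM, while Alb had 1.57 FPKM there and Cps1 was at 0 in all 12 libraries. The 8 endothelial markers summed to 75.4 to 125 FPKM in the libraries labelled db/db-GABP-KD, 35.97 to 72.3 FPKM in db/db-veh, 149 to 219 FPKM in db/m-GABP-OE and 84.2 to 105 FPKM in db/m-veh. Their sum was below db/m-veh in all db/db-veh libraries and above it in all db/m-GABP-OE libraries. The same held on the scaled values, with 68.0 to 89.7 in db/db-veh, 114 to 165 in db/m-GABP-OE and 93.9 to 107.5 in db/m-veh. These sums largely follow Plvap, which averaged 66.3 FPKM, against 8.59 FPKM for Emcn, the next of the 8. The separation of the sums therefore need not hold for the other endothelial markers. No endothelial marker was called (0 of 8 in each comparison), and their medians were 0.35, -0.67 and 0.53 as deposited and -0.19, -0.36 and 0.11 on the scaled values. The 6 stromal markers had medians of 0.51, 0.12 and 1.81 as deposited and -0.054, 0.48 and 1.37 on the scaled values. Of 6 adrenal cortex markers 2 were tested, Star and Mc2r, at means of 0.438 and 0.255 FPKM, with 0 called, and medians of 0.14, 0.12 and 0.077 as deposited and -0.095, 0.29 and -0.060 on the scaled values. Of 5 adipocyte markers 3 were tested and Cfd was called higher in db/m-GABP-OE (log2 fold change 3.42, limma adjusted p = 0.0355, or 0.244 after the median of ratios), with list medians of -1.02, 0.95 and 1.34 as deposited and -1.26, 1.04 and 1.13 on the scaled values. The part of these cell types in the P450 values was not tested.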

How the data were processed

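Poly(A) RNA of 12 kidney libraries was fragmented, primed at random and sequenced, per the labels' protocols. The authors deposited 1 table of FPKM (fragments scaled for gene length and library depth), 1 value per gene and library. The submitters' processing notes name HTSeq and GRCm39 with no version. Aligner, annotation and strand setting were not given in the sources used here. Union exon lengths of GENCODE M21 (GRCm38) turned the deposited FPKM into whole fragments (within 0.05 of a fragment) for 21423 of the 21795 genes with a length, including all 61 members, so coordinates are given in GRCm38. Without a stated strand, overlapping antisense genes cannot be told apart.

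The members, gene lists and tests were chosen with earlier results of these data known. The test was limma 3.58.1 (R 4.3.3) on log2(FPKM + 0.5), a scale that understates changes of low genes, with variances moderated along a trend. It took genes reaching FPKM 0.3 in 3 or more libraries, all 12 libraries in 1 fit, 1 mean per group, no block, and two-sided p-values with Benjamini-Hochberg adjustment over 12897 genes. Members were named if called, if among the 12 highest means, or if the libraries of 2 compared groups did not overlap and the higher mean was at least 1 FPKM, and list genes if called or, with none called, if among the 2 highest means. Kap, Dbp, Por, Alb and Gabpa were always given, and Cps1 and the Y-linked genes were chosen after their values were seen. Alternatives were pseudocounts 0.1 and 1, the filter dropped or raised to FPKM 1, scaling by median of ratios (5884 genes), an equal sum of nuclear genes, a replicate block, fits of 2 groups, voom on recovered fragments, each library left out and, chosen after seeing the data, median of ratios without library 1 labelled db/db-GABP-KD. The fit was run on simulated data that lacked the shifts between libraries seen here. That run does not measure its error rate on these data. The chi-square per degree of freedom between replicates of a group was 6.59 to 53.1, so none was a copy. Promoter sequences are from RefSeq on GRCm38.p6. Other steps used Python 3.11.15, numpy 2.4.6, pandas 2.3.3, matplotlib 3.10.9 and scipy 1.17.1.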

Additional observations from a re-analysis of the deposited data

How the results depend on the processing

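Over 22 alternatives 2 of the 20 members were called in any, Cyp2a4 and Cyp2d12, both lower in db/db-veh than in db/m-veh. With 0 called as deposited, 1 was called there after the median of ratios, with an equal sum of nuclear genes, with the replicate block and in the fit of the 2 groups compared, and 2 after the median of ratios without library 1 labelled db/db-GABP-KD. Leaving out single libraries gave 0 to 2 there and 0 to 0 in the other comparisons. Deviations of same-numbered libraries from their group means had correlations of -0.477 to 0.381 between groups. Differently numbered libraries were not computed beside them, so whether the replicate numbers pair the libraries cannot be decided. The replicate block gave 13 genes for db/db-veh, 277 for db/m-GABP-OE and 0 for the libraries labelled db/db-GABP-KD, against 12, 245 and 0 without it.

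Among all genes, db/db-veh against db/m-veh gave 2 with no filter, 22 after the median of ratios, 35 with an equal nuclear sum, 41 in the fit of 2 groups, 5 with voom, 2 to 48 with a library left out and 54 after the median of ratios without library 1 labelled db/db-GABP-KD. For db/m-GABP-OE the counts were 62 with pseudocount 0.1, 159 with a filter of FPKM 1, 27 after the median of ratios, 15 with an equal nuclear sum, 604 in the fit of 2 groups, 65 with voom, 31 to 559 with a library left out and 77 in the added setting. For the libraries labelled db/db-GABP-KD they were 1 with no filter, 5 after the median of ratios, 6 with an equal nuclear sum, 0 with voom, 0 to 4 with a library left out and 9 in the added setting.

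None of the sign changes below concerned a called member, and the cause was not tested. They are listed only for members that met the naming rule above. Cyp1a1, Cyp2f2, Cyp2j7, Cyp2j8 and Cyp2u1, which did not meet it, also changed sign in some settings. After the median of ratios the log2 fold change was -0.41 for Cyp2d9 and -0.12 for Cyp2j9 in db/m-GABP-OE, and -0.32 for Cyp2d22, -0.47 for Cyp2d9, -0.43 for Cyp2j11 and -0.36 for Cyp2j5 in the libraries labelled db/db-GABP-KD. With an equal nuclear sum it was 0.15 for Cyp2c23 and 0.080 for Cyp2j5 in db/db-veh, -0.092 for Cyp2d22, -0.55 for Cyp2d9 and -0.24 for Cyp2j9 in db/m-GABP-OE, and -0.0057 for Cyp1b1, -0.43 for Cyp2d22, -0.59 for Cyp2d9, -0.55 for Cyp2j11 and -0.48 for Cyp2j5 in the libraries labelled db/db-GABP-KD. In the added setting it was -0.42 for Cyp2d9 and -0.13 for Cyp2j9 in db/m-GABP-OE, and -0.81 for Cyp2a5, -0.49 for Cyp2d22, -1.13 for Cyp2d9, -0.011 for Cyp2j11 and -0.12 for Cyp2j5 in the libraries labelled db/db-GABP-KD. With single libraries left out it ranged from -0.18 to 0.47 for Cyp1b1 and -0.27 to 0.87 for Cyp2d26 in db/db-veh. For db/m-GABP-OE the ranges were -1.12 to 0.26 for Cyp2a5, -0.46 to 0.30 for Cyp2d9, -0.57 to 0.33 for Cyp2e1 and -0.074 to 0.61 for Cyp2j9. In the libraries labelled db/db-GABP-KD it ranged from -0.52 to 1.63 for Cyp2a5, -0.69 to 0.28 for Cyp2c23, -0.20 to 0.51 for Cyp2d22, -0.84 to 0.72 for Cyp2d9, -0.998 to 0.49 for Cyp2e1, -0.17 to 0.41 for Cyp2j11, -0.96 to 0.22 for Cyp2j6 and -1.21 to 0.56 for Cyp2j9. Over all alternatives 12 of 20 members kept their sign for db/db-veh, 11 for db/m-GABP-OE and 5 for the libraries labelled db/db-GABP-KD. Nuclear genes had 1.08 to 4.39 M fragments a library, which limits members under about 1 FPKM.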
